A study of Mus musculus with 15 samples.

Results

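RNA libraries from livers of mice fed a fibrosis-inducing diet fell into 2 classes by how many genes of chemosensory receptors had at least 1 read count. Olfactory, vomeronasal and trace amine receptors are made by sensory neurons and are silent or nearly so in liver. Of 1985 such genes in the table, between 158 and 243 had a count in 6 libraries and between 63 and 82 in the other 4. The libraries were chosen by this number, on either side of a boundary at 5.69% of the receptor genes, and the classes hold all 10 diet-fed libraries of the 14 in the table. The class with many receptor genes holds Vehicle replicates 1, 2 and 3 and SR9009 replicates 2, 4 and 5, and the class with few holds Vehicle replicates 4 and 5 and SR9009 replicates 1 and 3. SR9009 replicate 5, with 158 genes, was the nearest library above the boundary, and Vehicle replicate 5, with 82, the nearest below. The classes were drawn from these counts, so every difference between them below is a description without a p-value. The labels give no batch of extraction or library preparation, and the part of library preparation or trace DNA in the counts of silent genes was not tested.

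All mice were C57BL/6J males, a common inbred laboratory strain, that were 8 weeks old at the start. The mice of the Vehicle and SR9009 groups were given CDA-HFD for 18 weeks, a high-fat diet that lacks choline and has adapted amino acids and that leads to a fatty, inflamed and scarred liver. After 12 of those weeks they were randomized to daily intraperitoneal injections, for 6 weeks, of SR9009 at 100 mg/kg per day or of 15% Kolliphor in saline (Vehicle). SR9009 is a synthetic agonist of the REV-ERB nuclear receptors, which repress transcription in the circadian clock. Chow mice ate standard chow for 18 weeks. Each library was made from total RNA of a snap-frozen piece of liver, so a lower level in bulk RNA can come from fewer cells of a type or from less RNA per cell, and these cannot be told apart.

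The RNAs that differed most belong to a few well known systems. Meg3, Rian and Mirg are long noncoding RNAs of the imprinted Dlk1-Meg3 locus, where genes are transcribed from only the maternal or only the paternal chromosome. Interferon stimulated genes encode antiviral proteins and are switched on together by type I interferon through a transcription factor complex that binds a short repeat of the letters GAAA in their promoters. In a scarred liver, bile duct cells and matrix-producing mesenchymal cells expand together around the portal tracts, while hepatocytes, the main cells of the tissue, make lipids in response to insulin and feeding.

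Library size did not part the classes. Total counts were 35231134 to 42219282 with many receptor genes and 37881900 to 45542335 with few. The number of genes with any count, which includes the receptor genes that set the classes, did not overlap, at 25504 to 27200 against 23481 to 25398. The hepatocyte marker Alb, encoding serum albumin, was at 47792 to 70100.4 CPM (a gene's counts relative to the scaled total of its library) with many and 54375 to 66912 with few, and these ranges overlapped. Cytosolic ribosomal protein genes held 1.87% to 2.28% of counts with many receptor genes and 1.59% to 1.88% with few. Of the receptor genes themselves, 406 had a count in any diet-fed library and 1579 had none. In all, 34 had a count in every library of the first class and in none of the second, and 0 the reverse, which the choice of classes favours. On the first principal component of log2 CPM, which held 32.7% of the variance, the 6 libraries lay between 13.6 and 33.8 and the 4 between -42.7 and -32.8. On the second component (15.2%), SR9009 libraries lay between -29.9 and -1.55 and Vehicle libraries between 1.498 and 47.7, so the classes and the treatments were laid out on separate axes.

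**Figure D1:**
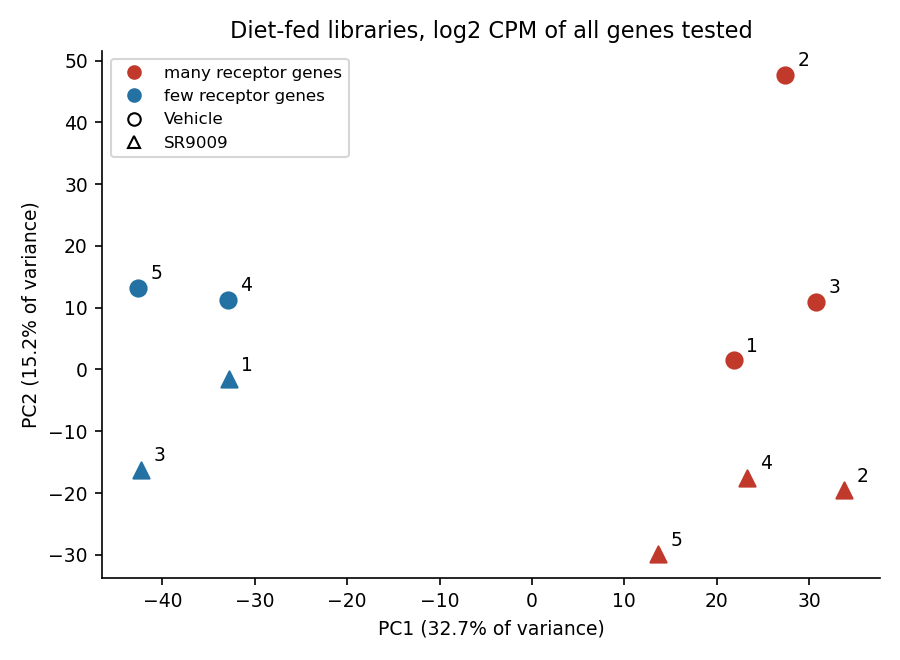
First and second principal components of log2 CPM in the 10 diet-fed libraries, with the share of variance on each axis; color gives the class, shape the treatment and the number the replicate. The classes do not overlap on the first component, and SR9009 libraries lie below all Vehicle libraries on the second.

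With treatment as a term, edgeR's quasi-likelihood fit called 1570 of 17410 genes different between the classes (9.02%) at an adjusted p of 0.05. Of these, 987 were higher with many receptor genes (5.67%) and 583 lower (3.35%). These calls only sort genes, since the same counts set the classes. Levels did not overlap between the classes for 893 genes higher (5.13%) and 611 lower (3.51%) with many receptor genes. The median log2 fold change over all genes tested was -0.01. Scaling by raw totals gave 1086 higher and 261 lower. Leaving out 1 library moved the count to between 772 and 1936; it fell by more than 1.5 times without Vehicle replicate 5 (772), SR9009 replicate 3 (817), SR9009 replicate 2 (838), Vehicle replicate 3 (954), SR9009 replicate 4 (959) or SR9009 replicate 1 (1044).

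The balance of calls differed with expression level. With genes of a mean of at least 1 CPM alone in the fit, 798 were called higher and 371 lower. Among 11094 genes that reached 5 CPM in either class, 547 were called higher and 539 lower, and 50 and 12 of these differed at least 2-fold. Among 3154 genes under 1 CPM, 228 were higher and 10 lower. Of 1713 genes that lacked 10 counts in all 4 libraries with few receptor genes, 249 were called higher and 0 lower; a gene seen mainly in 1 class passes the expression filter through that class, so this count had to lean one way.

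Meg3 was low in the 6 libraries with many receptor genes and high in the other 4. With many, Meg3 was at 14.7 CPM in the lowest library, 39.9 in the median and 79.8 in the highest. With few, it was at 133 CPM in SR9009 replicate 1, 167 in SR9009 replicate 3, 145 in Vehicle replicate 4 and 217 in Vehicle replicate 5. No library of one class reached the other, and the log2 fold change, many minus few, was -1.97 ± 0.41 (SE). In 10 fits that each left out 1 library, Meg3 lost its call in 6, with log2 fold changes of -2.34 to -1.75, and Rian and Mirg in 0. Rian, which hosts small nucleolar RNAs, ranged from 8.35 to 34.1 CPM with many (median 22.3). It was at 83.7, 89.7, 67.6 and 112 CPM in SR9009 replicates 1 and 3 and Vehicle replicates 4 and 5 (log2 fold change -2.05 ± 0.35). Mirg, a microRNA host transcript, ranged from 0.496 to 1.99 CPM against 4.86 to 6.31 (-2.11 ± 0.32). All 3 RNAs, which are expressed from the maternal chromosome, were thus lower by like amounts and without overlap. In Chow, Meg3 was at 1.41 CPM in replicate 1 and 3.05 to 6.85 in replicates 2 to 4, below every diet-fed library. Dio3os, at the far end of the locus, did not share the direction (0.68 ± 0.23, not called), and Dlk1, Rtl1, Dio3 and Begain were too low to be tested.

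The 2 most abundant nuclear RNAs of the lists were not called. Malat1, an abundant RNA of nuclear speckles, was at 366 to 664 CPM with many receptor genes and 279 to 488 with few (0.24 ± 0.20, not called). Neat1, the scaffold of nuclear paraspeckles, was at 853 to 1165 CPM against 898 to 1715 (-0.42 ± 0.14, not called). Among 16 other imprinted genes tested, 4 were called higher and 1 lower, against 5.67% and 3.35% of all genes tested. The list's median was 0.67. Those higher, named after their values were seen, were the growth inhibitor Cdkn1c (0.96), the zinc finger gene Plagl1 (0.85), the receptor adaptor Grb10 (0.82) and Sgce (0.64), and the splicing gene Snrpn was lower (-0.60). Within each treatment, the genes whose log2 CPM ranked most like Meg3 over the 10 libraries were Gm4673 (Spearman's rho 1), then Apba2, Cyp2d11, Dolk and Rian (0.988), then 1110028F11Rik, Acsm5, Cyp2r1, Fam47e and Sult2a7 (0.976). All points share the class, so these values describe the ranking only. Acsm5, a mitochondrial acyl-CoA synthetase gene, was at 73.2 to 110 CPM with many and 122 to 156 with few. Cyp2r1, a vitamin D hydroxylase gene, was at 7.54 to 11.5 CPM against 11.5 to 15.3.

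**Figure D2:**
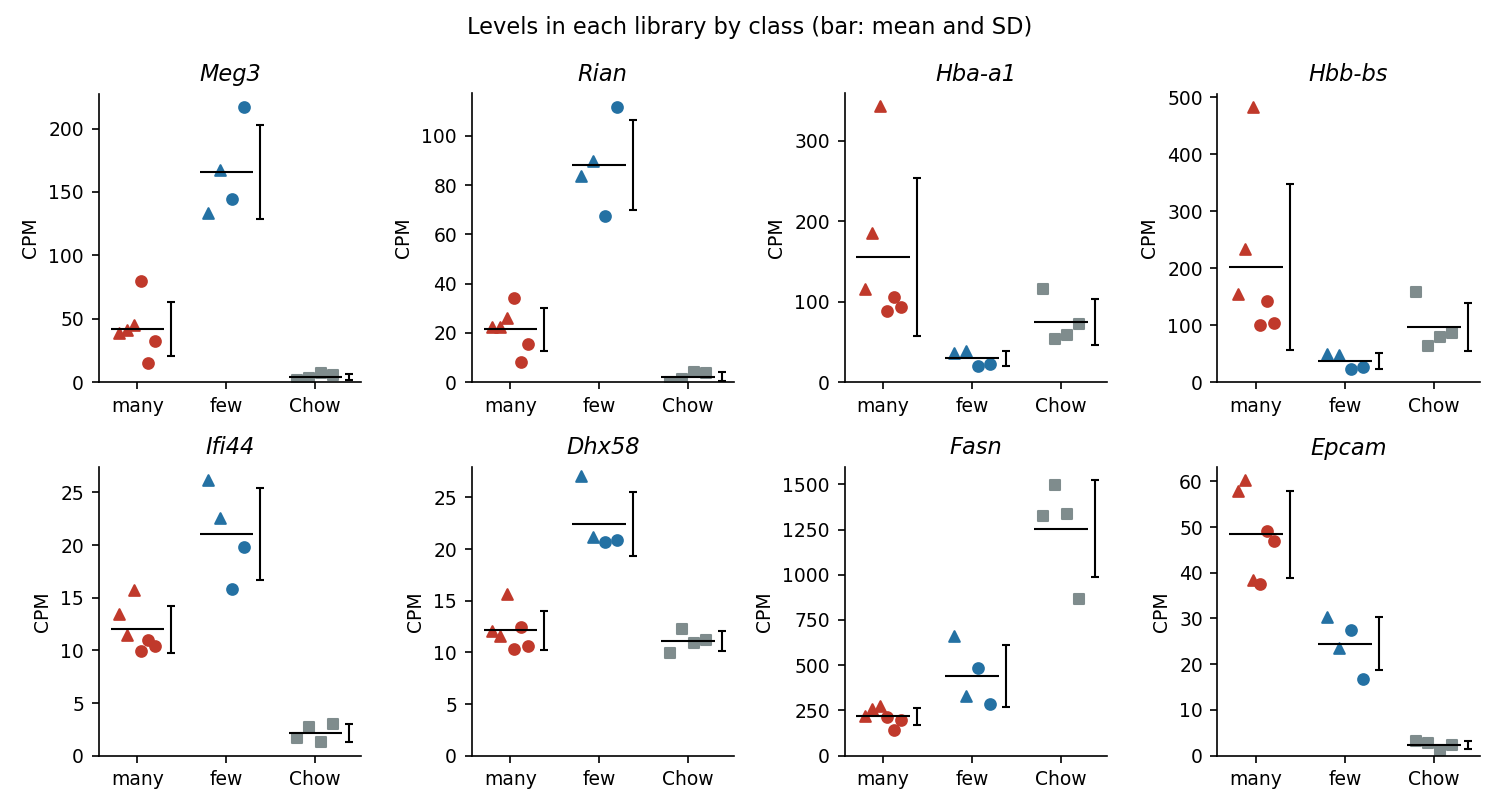
CPM of 8 genes in each library, by class and in Chow; circles are Vehicle, triangles SR9009 and squares Chow, with the mean as a line and the SD as a bar (n = 6, 4 and 4). Meg3, Rian, Ifi44, Dhx58 and Fasn are lower and Hba-a1, Hbb-bs and Epcam higher with many receptor genes, with no overlap between the classes for any of the 8.

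Interferon stimulated genes were lower with many receptor genes. Of 30 tested, 21 were called lower and 0 higher, against 3.35% and 5.67% of all genes tested. In the list, 29 had a negative difference, and the median was -0.57. Dhx58, which encodes the RNA sensor LGP2, was at 10.4 to 15.7 CPM with many (median 11.8). It was at 27.1, 21.2, 20.7 and 20.9 CPM in SR9009 replicates 1 and 3 and Vehicle replicates 4 and 5 (-0.89 ± 0.11). Ifi44 was at 9.95 to 15.7 CPM (median 11.2) against 26.2, 22.5, 15.8 and 19.8 CPM in the same order (-0.81 ± 0.10). Mx2, a dynamin-like antiviral GTPase gene, was at 5.30 to 7.53 CPM against 9.69 to 11.9 (-0.81 ± 0.11). Ifih1, encoding the RNA sensor MDA5, was at 44.9 to 60.4 CPM against 62.8 to 84.9 (-0.57 ± 0.08). All 4 genes kept the classes apart, with Vehicle replicate 4 the nearest of the 4 libraries for Ifi44 and Ifih1. Gbp10, an interferon-induced guanylate-binding protein gene outside the list, was at 2.82 to 8.52 CPM against 10.2 to 20.99 (-1.23 ± 0.30). The list's summed level was 743 to 1059 CPM with many and 1007 to 1287 with few, so the sums overlapped.

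The promoters of 3 members that were called lower show the motif named above, and they are printed because the list moved together; Ifit1, Isg15 and Oas1a were chosen after their values were seen. Ifit1 encodes a protein that binds viral RNA caps, Isg15 a ubiquitin-like modifier and Oas1a an oligoadenylate synthetase. Each line gives the 160 bases before the annotated transcription start, from RefSeq on GRCm38.p6, read 5′ to 3′ on the gene's strand. Capitals mark the motif searched, GAAA followed by any 2 bases and GAAA again, or, where it is on the other strand, TTTC, any 2 bases and TTTC; overlapping matches are joined. The stretches are chr19:34640729-34640888 (plus strand) for Ifit1, chr4:156200819-156200978 (minus strand) for Isg15 and chr5:120907526-120907685 (minus strand) for Oas1a.
Ifit1: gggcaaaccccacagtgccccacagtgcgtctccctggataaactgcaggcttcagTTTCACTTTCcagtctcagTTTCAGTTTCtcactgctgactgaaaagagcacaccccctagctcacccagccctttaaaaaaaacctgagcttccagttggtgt
Isg15: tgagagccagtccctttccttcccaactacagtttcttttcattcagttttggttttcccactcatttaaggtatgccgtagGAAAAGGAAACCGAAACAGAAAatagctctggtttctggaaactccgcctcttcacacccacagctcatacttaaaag
Oas1a: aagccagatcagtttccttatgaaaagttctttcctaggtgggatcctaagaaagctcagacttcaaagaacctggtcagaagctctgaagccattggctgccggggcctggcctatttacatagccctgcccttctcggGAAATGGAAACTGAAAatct
Ifit1 carries 2 separate copies, while in Isg15 and Oas1a overlapping matches form 1 longer run. In the 200 bases before the start, 716 of 27025 genes (2.65%) held the motif on either strand, against 11 of 22 list members with a promoter in the table and 7 of the 15 called lower (46.7%). The motif was thus no more frequent among members called lower than over the list, and a match is a description of the sequence only. Ifit1 was at 12.8 ± 2.88 CPM (SD, n = 6) with many and 25.8 ± 8.49 (SD, n = 4) with few (log2 fold change -0.99 ± 0.19 SE). Isg15 was at 16.5 ± 5.10 against 30.1 ± 6.71 CPM (-0.89 ± 0.14), and Oas1a at 18.7 ± 3.02 against 26.3 ± 5.19 CPM (-0.50 ± 0.13). Libraries of the 2 classes overlapped for these 3 genes.

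Fasn, Elovl6 and Acaca, enzymes of fatty acid synthesis, were lower with many receptor genes. Of the 25 feeding, fasting and insulin responsive genes that hold them, 6 were called lower and 1 higher. Over all genes tested, 3.35% were called lower and 5.67% higher. In the list, 15 had a negative and 10 a positive difference, and the median was -0.22. Fasn, the fatty acid synthase, was at 143 to 274 CPM (median 219) against 659, 328, 486 and 285 CPM in SR9009 replicates 1 and 3 and Vehicle replicates 4 and 5 (-1.02 ± 0.21). Elovl6, a fatty acid elongase gene, was at 36.5 to 51.9 CPM against 65.1 to 101 (-0.81 ± 0.12). Acaca, the acetyl-CoA carboxylase that supplies Fasn, was at 73.7 to 80.9 CPM against 87.1 to 109 (-0.41 ± 0.07). These 3 enzymes of 1 pathway did not overlap between the classes, with Vehicle replicate 5 the nearest to the other class for Fasn. Txnip, a glucose-induced thioredoxin inhibitor gene, went the other way, at 89.1 to 149 CPM against 64.0 to 70.4 (0.95 ± 0.13). Without SR9009 replicate 1, which had the highest Fasn and Elovl6 of the 10 diet-fed libraries, 4 members of the list were called.

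Hepatocyte identity genes lay near 0. Of 30 secreted proteins and enzymes 0 were called, against 9.02% of all genes tested, with a median of -0.07. Among those of lowest p were Hnf4a (-0.18 ± 0.09), Tdo2 (-0.14 ± 0.11) and Apob (-0.13 ± 0.10). None was called among 13 mitochondrially encoded mRNAs (all 13 negative, median -0.22), 29 nuclear oxidative phosphorylation genes, 25 unfolded protein and stress response genes, 26 immediate early and heat shock genes, or 30 cell cycle genes. Among 33 drug metabolism genes 3 were lower, against 3.35% of all genes tested. Ugt1a9, a glucuronosyltransferase gene whose reads can be shared with other Ugt1a first exons, was at 6.20 to 16.8 CPM against 17.2 to 27.2 (-1.11 ± 0.23). Abcc2, the bile canalicular exporter, was at 570 to 688 CPM against 771 to 1099.8 (-0.51 ± 0.08). Of 20 clock genes 2 were called, against 9.02% of all genes tested. Per2 was lower (-0.83 ± 0.23) and Bhlhe41 higher (0.37 ± 0.11), both named after their values were seen. Other genes among the largest differences toward few receptor genes were the steroid dehydrogenase gene Hsd3b2 (13.2 to 23.4 against 28.7 to 39.0 CPM) and Nxpe2 (8.85 to 23.3 against 25.9 to 40.9 CPM). The noncoding Hectd2os was at 1.44 to 3.14 against 3.14 to 7.92 CPM, and the cartilage matrix gene Chad at 2.87 to 4.32 against 5.77 to 6.83 CPM.

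Bile duct markers were higher with many receptor genes. Of 21 cholangiocyte genes 10 were called higher and 0 lower, against 5.67% and 3.35% of all genes tested, and the median was 0.80. Epcam, an epithelial adhesion protein gene, was at 37.6 to 60.2 CPM (median 48.1) against 30.2, 23.5, 27.4 and 16.8 CPM in SR9009 replicates 1 and 3 and Vehicle replicates 4 and 5 (0.98 ± 0.17). Cldn4, a tight junction protein gene, was at 7.40 to 12.3 CPM against 3.65 to 6.55 (1.05 ± 0.16). Krt19, the duct keratin, was at 20.4 to 36.6 CPM against 10.5 to 15.7 (0.97 ± 0.12). Spp1, encoding osteopontin of ducts and macrophages, was at 736 to 1073 CPM against 399 to 594 (0.86 ± 0.14). All 4 were without overlap. Without SR9009 replicate 3, 4 members were called and the median was 0.76.

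Matrix genes leaned the same way, with the main collagens short of a call. Of the 33 members of the collagen and matrix list, 10 were called higher and 0 lower, with a median of 0.44. Of 28 remodelling genes, 8 were called higher and 0 lower, with a median of 0.46. Over all genes tested, 5.67% were called higher and 3.35% lower. Mmp7, a metalloprotease gene of duct epithelium, was at 14.5 to 37.2 CPM (median 22.8) against 8.74, 7.29, 10.2 and 6.50 CPM in SR9009 replicates 1 and 3 and Vehicle replicates 4 and 5 (1.55 ± 0.27). The microfibril genes Mfap4 (8.07 to 16.3 against 3.06 to 6.87 CPM, 1.51 ± 0.27) and Mfap2 (2.48 to 5.07 against 0.753 to 1.71 CPM, 1.38 ± 0.26) did not overlap, nor did Col6a2 (42.9 to 87.1 against 25.98 to 39.7 CPM, 0.99 ± 0.20). Timp2, a metalloprotease inhibitor gene, was at 157 to 215 CPM against 91.5 to 124 (0.76 ± 0.12). The matricellular gene Sparc (0.54 ± 0.12), the collagenolytic cathepsin gene Ctsk (0.73 ± 0.18) and the macrophage cathepsin gene Ctss (0.44 ± 0.10) were called with overlapping libraries. Col1a1, the main scar collagen, was at 163 to 288 CPM with many and at 158, 114, 201 and 164 CPM with few, in the order above (0.46 ± 0.17, not called). Col3a1 (0.49 ± 0.16), the inhibitor Timp1 (0.52 ± 0.16) and the smooth muscle actin gene Acta2 (0.40 ± 0.24) were not called either, and each overlapped. The matrix count rests on few libraries: 2 genes were called without Vehicle replicate 5, 3 without SR9009 replicate 1, 4 without SR9009 replicate 3 and 6 without SR9009 replicate 4.

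Other genes had some of the largest differences toward many receptor genes. Cpxm2, a carboxypeptidase-like gene, was at 5.77 to 17.9 CPM against 1.89 to 4.77 (1.88 ± 0.37). Slit2, a secreted guidance factor gene, was at 5.35 to 9.70 CPM against 1.20 to 3.45 (1.70 ± 0.28), and Cdh11, a mesenchymal cadherin gene, at 2.42 to 8.53 CPM against 0.857 to 2.27 (1.68 ± 0.36). Dpep1, a membrane dipeptidase gene, was at 4.86 to 12.3 against 1.58 to 4.47 CPM (1.69 ± 0.30). Cyp1b1, a P450 of stromal cells, was at 8.43 to 13.7 against 2.80 to 4.99 CPM (1.33 ± 0.18), and the matrix protein gene Fbln1 at 6.15 to 11.2 against 2.26 to 4.29 CPM (1.27 ± 0.18). Stellate cells, the vitamin A-storing pericytes that become myofibroblasts, gave a split list: of 18 markers 5 were higher and 2 lower, with a median of 0.34. Over all genes tested, 5.67% were called higher and 3.35% lower. Gas6 (0.72 ± 0.11), Vim (0.55 ± 0.10) and Cygb (0.73 ± 0.14) were higher with no overlap. The 2 lower genes were Colec10 and Lrat, and over the list 13 markers had a positive and 5 a negative difference. Colec10, a collectin gene, was at 3.99 to 8.27 CPM against 17.5, 20.98, 8.54 and 12.3 CPM (-1.15 ± 0.22), and Lrat, the retinol-esterifying enzyme gene, named after its values were seen, was lower by -0.58 ± 0.16.

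Of 20 endothelial markers, 6 were higher and 1 lower, against 5.67% and 3.35% of all genes tested. The list's median was 0.34 (0.73 within Vehicle and 0.11 within SR9009). In the list, 18 had a positive and 2 a negative difference. Cd34 was at 18.4 to 30.2 CPM against 8.87 to 13.7 (1.005 ± 0.10), Vwf at 13.3 to 18.6 against 9.51 to 10.6 (0.68 ± 0.11) and Gpihbp1 at 24.7 to 34.8 against 11.6 to 21.9 (0.71 ± 0.15). Plvap, a gene of endothelial diaphragms, was lower, at 40.7 to 69.2 against 78.7 to 89.2 CPM (-0.55 ± 0.10). Those named had the lowest p of a list that also holds sinusoidal markers, such as Stab2 and Lyve1, not reported here. The endothelial count was 4 without Vehicle replicate 1, 3 or 5 or SR9009 replicate 4. Of 20 markers of monocytes and lipid-associated macrophages, the macrophages that gather around fat-laden hepatocytes, 10 were higher and 0 lower. This was against 5.67% and 3.35% of all genes tested, and all 20 were positive with a median of 0.31. The lipid receptor gene Trem2 was at 72.2 to 93.6 CPM against 57.5 to 70.4 (0.37 ± 0.07), and the lysosomal marker Cd68 at 104 to 122 against 77.4 to 94.8 (0.37 ± 0.07). Fabp5, a fatty acid-binding protein gene, overlapped slightly, at 66.7 to 99.4 against 53.8 to 68.5 CPM (0.46 ± 0.07). Of 14 markers of Kupffer cells, the resident macrophages, 0 were called, against 9.02% of all genes tested, and the median was -0.18. Values were 0.24 ± 0.11 for Adgre1, -0.72 ± 0.27 for C6, -0.17 ± 0.08 for Nr1h3 and 0.20 ± 0.12 for Id3.

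**Figure D3:**
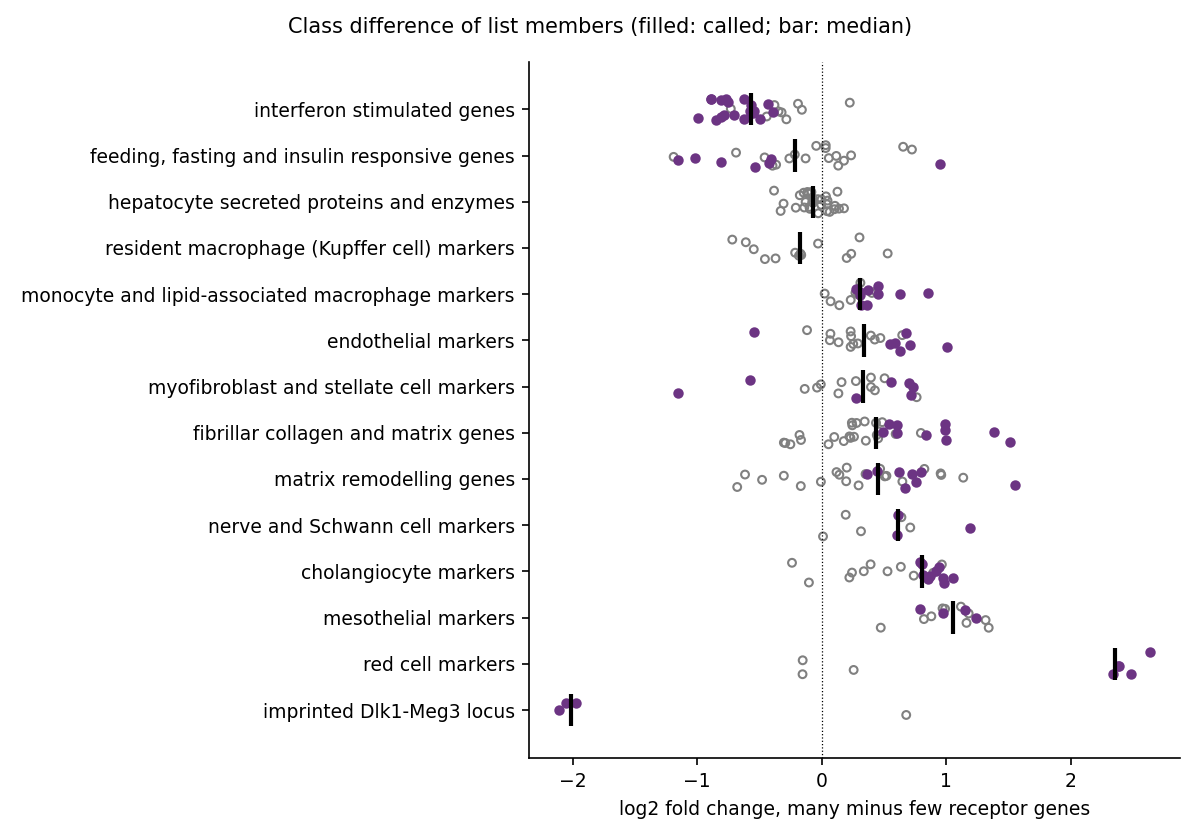
Log2 fold change, many minus few receptor genes, of each tested member of 14 gene lists; filled points were called, open points were not, and the vertical bar is the list's median. Interferon genes and 3 RNAs of the Dlk1-Meg3 locus lie left of 0, hepatocyte genes center near 0, and duct, mesothelial and red cell markers lie farthest right.

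Markers of blood, the liver surface and nerve moved with the class. Haemoglobin genes were the largest differences toward many receptor genes among those named. Hbb-bs, the adult beta chain, was at 101 to 484 CPM (median 148) with many receptor genes and at 49.3, 48.5, 23.8 and 27.0 CPM in SR9009 replicates 1 and 3 and Vehicle replicates 4 and 5 (2.38 ± 0.33). Hba-a1, an alpha chain gene, was at 88.8 to 342 CPM (median 111) against 36.6, 39.3, 20.2 and 22.0 CPM (2.34 ± 0.29). Hbb-bt (2.48 ± 0.31) and Hba-a2 (2.39 ± 0.29), near-identical copies whose reads may be split, followed. In all, 5 of 8 red cell markers tested were higher and 0 lower, against 5.67% and 3.35% of all genes tested. The list's summed level was 481 to 1196 CPM with many and 336 to 415 with few. The other 3 red cell markers tested were not called: the heme synthesis genes Alas2 (-0.15 ± 0.15) and Fech (-0.15 ± 0.07), and Bpgm of the red cell's glycolysis (0.26 ± 0.08). Fech was lower without overlap, at 183 to 198 CPM against 201 to 226. The red cell membrane genes Slc4a1 and Epb42 were near 0, at most 0.284 CPM in any diet-fed library. Of 14 mesothelial markers, 4 were higher, against 5.67% of all genes tested, all 14 were positive and the median was 1.05. Gpm6a was at 16.1 to 33.6 against 6.73 to 12.7 CPM (1.24 ± 0.20) and Wt1, the mesothelial transcription factor gene, at 4.75 to 11.7 against 2.23 to 6.09 (1.15 ± 0.32). Krt19 and Krt7 (0.79 ± 0.20) are shared with bile ducts. The mesothelial median was 0.29 within Vehicle and 1.86 within SR9009, the summed level 92.6 to 280 CPM against 72.4 to 124, and the count 9 without Vehicle replicate 2 but 2 without Vehicle replicate 1, 3 or 5 or SR9009 replicate 1, 2, 3 or 4. Of 8 nerve and Schwann cell markers, 3 were higher, against 5.67% of all genes tested. These were the sodium channel-like gene Scn7a (1.19 ± 0.18) and the myelin genes Pmp22 (0.61 ± 0.09) and Mbp (0.61 ± 0.14). The list's summed level was 44.3 to 52.6 CPM against 28.6 to 34.4. Of 6 adipocyte markers tested, 3 had a positive and 3 a negative difference, with a median of -0.11. The 3 negative ones were called lower, against 3.35% of all genes tested. Liver also expresses all 3: Adrb3 (-0.87 ± 0.20), Pparg (-0.29 ± 0.08) and Car3 (-0.58 ± 0.16). Cidec went the other way (0.49 ± 0.24, not called). In 10 fits that each left out 1 library, Pparg lost its call in 9, Car3 in 8 and Adrb3 in 3. The part of blood, surface or nerve RNA in the other differences was not tested.

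Beyond receptors, a set of otherwise silent genes had counts in 1 class only. Leaving out receptor genes, 149 genes had at least 3 counts in each of the 6 libraries with many receptor genes and none in the other 4, and 0 genes did the reverse. At a minimum of 1 count these numbers were 419 and 7, and the choice of classes favours this lean. Prss27, a serine protease gene, had 11 to 55 counts per library, and Cacng2, a brain calcium channel subunit gene, 7 to 61; both examples were chosen after their values were seen. The 149 class-only genes together held 29.6 to 73.0 CPM, highest in Vehicle replicate 3 and next in Vehicle replicate 1, the same libraries that led in receptor genes. Of the 133 with an earlier gene model, 24.8% were protein coding and 22.6% pseudogenes, against 15.5% and 40.8% of all genes with no count in the libraries with few receptor genes. Their median exonic length was 1522 bases against 678. Only 3.0% lay opposite a gene of at least 10 CPM on the other strand, against 4.0%. Of 20 very long genes of neurons and muscle tested, 5 were higher and 0 lower, against 5.67% and 3.35% of all genes tested. The list's median was 0.54, while its summed level was 168 to 190 CPM with many and 160 to 206 with few. Pcdh15, Opcml, Fgf14, Nrxn3 and Dab1, named after their values were seen, differed by 3.56, 3.33, 2.17, 2.10 and 1.31 on the log2 scale.

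**Figure D4:**
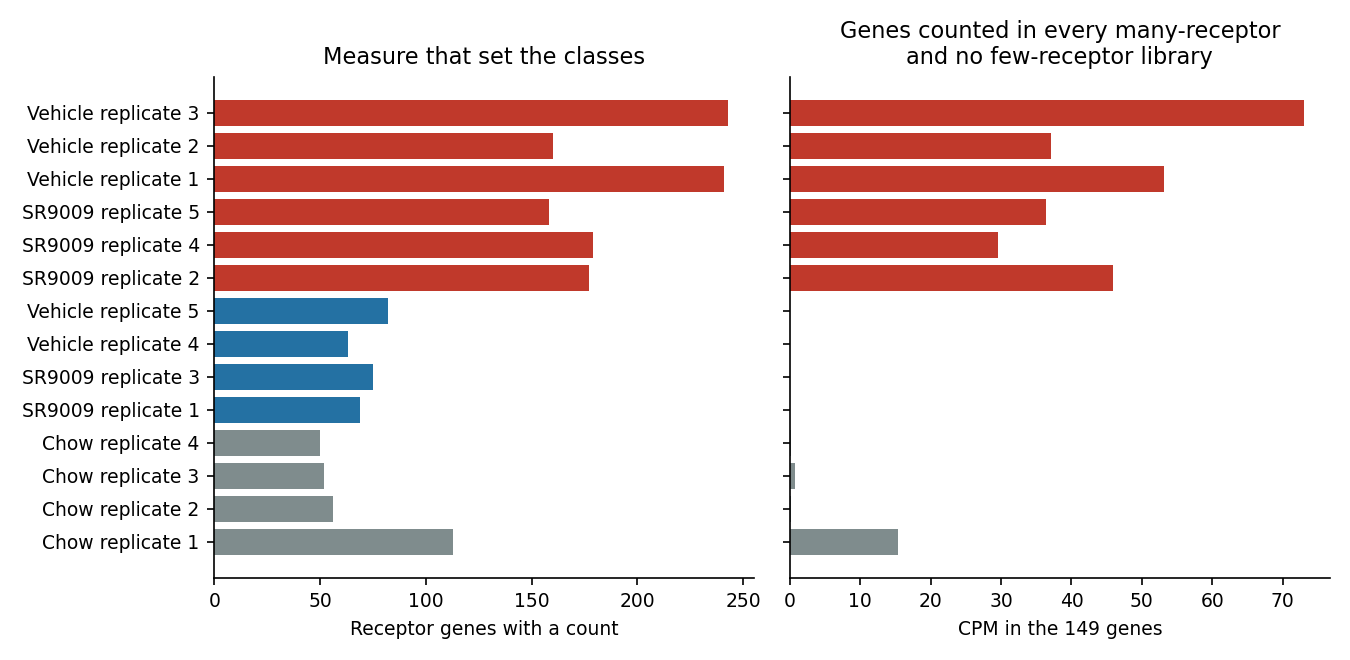
Left, the number of receptor genes with a count, which set the classes; right, CPM in the genes counted in every library with many receptor genes (red) and, by choice, in none with few (blue). Chow libraries (grey) belong to neither class, and Chow replicate 1 stands apart from the other 3 in both panels.

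The 4 Chow libraries belong to neither class. The boundary equals the number in Chow replicate 1, which had a count in 5.69% of receptor genes, so its receptor genes are no independent check of the boundary; replicates 2 to 4 had one in 56, 52 and 50 genes. Of the class-only genes, 131 (87.9%) had a count in Chow replicate 1, and 6, 11 and 2 in replicates 2 to 4. Their level in Chow replicate 1 was 15.3 CPM, below every diet-fed library with many receptor genes. Chow replicate 1 also had the highest Hbb-bs of its group (158 CPM against 63.7 to 86.2), the highest Hba-a1 (115 against 53.2 to 71.8), and the lowest Meg3, Rian (0.106 against 1.27 to 3.96) and summed interferon genes (512 against 556 to 641). Of the 12 genes named as most higher, it lay above the other 3 Chow libraries for 7 and below them for 4; of the 12 named as most lower, below for 8 and above for 1. Over the 547 genes called higher at 5 CPM or more it lay above all others for 36.0%, against 30.3% of all 11094, and over the 539 called lower it lay below all others for 36.4%, against 23.3%. Across the 13964 genes with a mean of at least 1 CPM, the class difference and the difference of Chow replicate 1 from the other 3, which share no library, had a Pearson r of 0.15 and a Spearman rho of 0.13; genes are not independent replicates. In Chow replicate 1 the summed level of cholangiocyte markers was above the other 3 (975 against 695 to 779 CPM), while those of mesothelial (26.8 against 16.7 to 43.4), lipid-associated macrophage (384 against 343 to 423) and nerve markers (9.27 against 8.70 to 9.71) and of matrix genes lay within them. Fasn, which differed by class, was at 1322 CPM in Chow replicate 1, within the 867 to 1498 of the others.

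The class differences within the 2 treatments, which share no library, ran together across genes. Across 13964 genes with a mean of at least 1 CPM, the difference within Vehicle and that within SR9009 had a Pearson r of 0.55 and a Spearman rho of 0.52, across genes that are not independent. All 547 higher and all 539 lower genes had the same sign in both treatments, which their choice from the joint fit favours. Meg3 differed by -2.09 within Vehicle and -1.85 within SR9009, Hbb-bs by 2.18 and 2.57, and Dhx58 by -0.90 and -0.88. Cdh11 differed more within SR9009 (2.39) than within Vehicle (1.01), and Wt1 likewise (2.01 and 0.42). The difference itself was tested with an interaction term: edgeR called 0 of 17410 genes (0.0%), with 763 at an unadjusted p under 0.05 and a lowest adjusted p of 0.542. DESeq2 called 16.

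**Figure D5:**
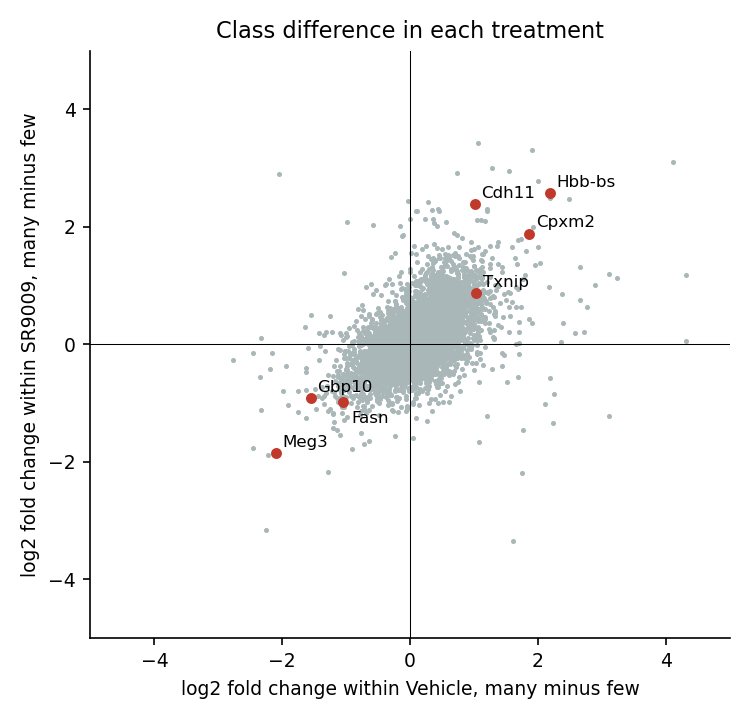
Log2 fold change between the classes within Vehicle (3 against 2 libraries) and within SR9009 (3 against 2), for 13964 genes with a mean of at least 1 CPM; 7 named genes are in red. The points run along the diagonal, with Meg3 at the lower left and Hbb-bs at the upper right.

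Treatment was balanced over the classes, with 3 of 5 libraries of each treatment in the larger one, so SR9009 and Vehicle were compared with and without the class as a term. Without it, edgeR's quasi-likelihood test with Benjamini-Hochberg adjustment called 43 of 17410 genes (0.247%), 23 higher and 20 lower with SR9009. With it, 106 were called (0.609%), 57 higher (0.327%) and 49 lower (0.281%). All 43 were among the 106, 63 were gained and 0 lost. The class was taken from the same counts and is treated as known here. Fold changes of called genes moved by at most 0.08 on the log2 scale, and over all genes tested the SE fell by 4.8% in the median. In each of 10 fits that left out 1 library, more genes were called with the class term than without, 44 to 211 against 13 to 49. With the term, the count was 211 without Vehicle replicate 2, and 44, 59, 59, 66 and 70 without SR9009 replicate 4, SR9009 replicate 5, Vehicle replicate 3, Vehicle replicate 5 and SR9009 replicate 2. Without the term it was 13, 20, 23, 24 and 27 without SR9009 replicate 5, SR9009 replicate 4, SR9009 replicate 3, SR9009 replicate 1 and Vehicle replicate 3.

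Of 33 drug metabolism genes tested, 14 were called higher with SR9009 with the class term and 12 without it. Over all 17410 genes tested, 57 (0.327%) were called higher with the term and 23 without it. Among the 63 genes gained, the 10 of lowest p were Ces2c, Slc16a12, Gstm4, Ugt2b34, Ahr and Cd1d1, which were higher, and Nedd4l, Lgals3, Abtb2 and Gm34654, which were lower. Ces2c, a carboxylesterase gene, was at 64.7 ± 13.8 CPM in Vehicle and 104 ± 22.2 in SR9009 (SD, n = 5 each; log2 fold change 0.69 ± 0.08 SE; edgeR adjusted p = 0.00139 with the class and 0.179 without). Ces2c was also lower by class (-0.50 ± 0.08). The glutathione transferase gene Gstm4 was at 72.6 ± 13.5 against 112 ± 11.2 CPM (0.64 ± 0.09; edgeR adjusted p = 0.00609 and 0.0587). Ahr, the aryl hydrocarbon receptor gene, was at 58.0 ± 8.79 against 81.7 ± 15.3 CPM (0.49 ± 0.07; edgeR adjusted p = 0.00781 and 0.230). Lgals3, encoding the macrophage lectin galectin-3, was at 189 ± 27.3 against 142 ± 13.1 CPM and fell by 0.41 on the log2 scale (SE 0.06; edgeR adjusted p = 0.0108 and 0.198). Of the 10, Lgals3 alone lost its call in any fit without 1 library, in 1 of 10 (highest edgeR adjusted p = 0.0507). Nedd4l, a ubiquitin ligase gene, fell by 0.55 (SE 0.07; edgeR adjusted p = 0.00322 and 0.156), from 83.8 ± 14.1 to 57.1 ± 9.31 CPM. Each of the 10 had the same direction of treatment difference within both classes, for example 0.68 and 0.70 for Ces2c and -0.46 and -0.32 for Lgals3 with many and few receptor genes. Their choice by lowest p in the joint fit favours this. Of the 63 genes gained, 18 were also called by class, against 9.02% of all genes tested. The class term takes up the spread of genes that differ by class, so this excess was favoured in advance.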

How the data were processed

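Raw counts per gene, which the authors deposited as 1 table with 1 column per library, were used as they stand. Per the submitters' processing notes, the aligner was STAR 2.7.11b and the build GRCm39. Counter, annotation and strandedness: not given in the sources used here, so overlapping and antisense genes are uncertain. Of 15 samples described, 14 had a column in the table used here, and Chow replicate 5 was not analysed. Each library is a separate sample of its group, and p-values measure only the spread between these samples, which may be technical. Symbols came from a RefSeq-based name table and matched 51880 of 57132 identifiers, holding 99.6% of counts. Gene length, biotype and chromosome came from gene models of GRCm38, another build. The overlap of genes on opposite strands used the positions and strands of these models.

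The 10 diet-fed libraries were fitted in edgeR 4.0.16 (R 4.3.3) with treatment and class, TMM scaling, robust quasi-likelihood and filterByExpr by treatment (minimum count 10, minimum total 15), which kept 17410 genes with 99.9% of counts. Benjamini-Hochberg adjustment ran over all genes kept, with a threshold of 0.05. Each SE is the log2 fold change divided by the square root of its F. CPM uses TMM-scaled totals; the rarely counted genes use raw totals. The common biological coefficient of variation was 0.17. For the ranking with Meg3, 0.5 was added to CPM before log2.

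The members, the 35 gene lists, the named genes and the tests were chosen with earlier results of these data known. Named were 11 genes always, the 12 largest differences each way (called, no overlap, at least 5 CPM in the higher class; receptor, predicted, pseudo- and immune segment genes left out), up to 4 members of each described list by lowest p, the 10 treatment calls of lowest p that the class term added, and the 10 genes most like Meg3. Results for some genes that this rule names are not reported here. The pipeline was tested on simulated data. Alternatives were DESeq2 1.42.0, limma-voom (limma 3.58.1), other scalings, filters and terms, and leaving out each library.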

Additional observations from a re-analysis of the deposited data

Results flagged for a closer look

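In 86 groups of values examined, 3 had 1 library far from the rest of its class; chance marks about 1 in 20 groups. Hbb-bs was at 483.8 CPM in SR9009 replicate 5, against 101 to 233 in the other libraries with many receptor genes. The summed red cell markers were at 1196 CPM in the same library, against 481 to 735. Dhx58 was at 27.08 CPM in SR9009 replicate 1, against 20.7 to 21.2 in the other libraries with few receptor genes. With each library left out in turn, 5 to 6 red cell markers and 16 to 22 interferon genes were called.

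A signal outside the comparison of diet-fed libraries was seen in Chow replicate 1, where 131 (87.9%) of the genes counted only with many receptor genes had a count, against 2 to 11 in the other Chow libraries.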

How the results depend on the processing

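No named gene that was called changed direction under any alternative run; genes that were not called, such as Malat1 (0.53 within Vehicle and -0.04 within SR9009), could change sign. The count of genes called by class was 2405 with DESeq2, 2704 with limma-voom, 3759 without a low-count filter (34737 genes tested) and 616 without Vehicle replicates 1 and 3, an alternative added after seeing the data. The SR9009 count with the class term was 480, 288, 885 and 50 under the same settings and 43 without the class term. The interaction gave 16 calls with DESeq2. With the replicate block, the class count was 593 and the interaction count 65. Same-numbered Vehicle and SR9009 libraries had correlations of their deviations of -0.373, 0.204, -0.335, -0.150 and -0.172. Only the replicate 2 libraries, the positive pair, are of the same class. The class thus bears on these signs, and they cannot tell whether same-numbered libraries share more than a number. Under the block, 20 results of named genes were weaker and 81 the same. The cause of these shifts was not tested.

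Leaving out each library in turn gave 772 to 1936 class calls, 44 to 211 SR9009 calls with the class term and 13 to 49 without it, and 0 interaction calls. The members called then ranged from 2 to 14 for fibrillar matrix, 4 to 13 for cholangiocyte, 2 to 9 for mesothelial, 4 to 8 for feeding, 4 to 8 for endothelial, 16 to 22 for interferon, 5 to 6 for red cell and 2 to 3 for Dlk1-Meg3 genes. Of named genes called by class, Pparg lost its call in 9 of 10 fits, and Car3, Gm4673, Nxpe2 and Wt1 in 8. Krt7 and Cyp2r1 lost theirs in 7, Meg3 and Gbp10 in 6 and Ctsk in 5. Differences in genes with under 10 counts in a library are limited by counting error.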

Other observations

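A set of 24623 genes was chosen for having no count in the 4 libraries with few receptor genes or in Chow replicates 2 to 4. By this choice, all their counts lie in the libraries with many receptor genes and in Chow replicate 1. Of the set, 1328 to 2028 genes had a count in each library with many receptor genes, and 861 in Chow replicate 1. Their counts fell on autosomes and on the X and Y chromosomes, and a finer spread over the genome was not tested. The counts made up 102 to 269 CPM in the libraries with many receptor genes and 47.5 in Chow replicate 1. Per megabase of exon, these libraries had 185 to 485 counts on autosomes and 69.9 to 173 on the X chromosome, and Chow replicate 1 had 76.0 and 41.6. On the Y chromosome the values were 105 to 229 and 32.8.

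Of 12 neutrophil markers tested, 1 was called higher with many receptor genes, against 5.67% of all genes tested. The list's summed level was 207 to 762 CPM with many and 253 to 786 with few. Of 20 T and NK cell markers 1 was called lower, against 3.35% of all genes tested, and of 14 B and plasma cell markers 1 was called higher, against 5.67%.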
